A study of Mus musculus with 2 samples.

Results

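Ly6c2 Ccr2 monocytes were described in mouse mammary tumours grown from the PyMT-N and the PyMT-M cell line. They were selected on their own counts of unique molecular identifiers (UMIs, each standing for 1 captured RNA molecule). A cell had to have at least 200 genes, at most 10% mitochondrial UMIs, at least 10 UMIs of Lyz2, at least 2 of Ly6c2 and at least 1 of Ccr2. It also had to have fewer than 20 UMIs of C1qa, C1qb and C1qc together per 10000, fewer than 50 of S100a8 and S100a9 together per 10000, and 0 UMIs of Siglech and of Cd3d, Cd3e and Cd3g. Of 12351 cells that passed the first 2 limits, 225 were members. They were 150 of 4994 cells in the PyMT-N library and 75 of 7357 in the PyMT-M library.

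PyMT-N and PyMT-M are mouse mammary cancer lines driven by polyoma middle T, a viral oncogene. Cells of a line were placed in the mammary gland of mice and the tumours harvested 4 weeks later, when they measured 0.7 to 1 cm across. From each tumour type 1 library was made of living (DAPI-negative) cells carrying CD45, a protein found on leukocytes, with droplet sequencing from the 5′ end of transcripts. The labels name no treatment. What the letters N and M stand for, the strain, sex and age of the mice, and the number of tumours in a library are not given in the sources used here. A single library per line allows no test, and no difference has a replicate check. Intervals are 95% counting intervals and cover counting error only, not variation between cells, tumours or library preparations.

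Classical monocytes are made in the bone marrow and circulate in the blood. The chemokine receptor Ccr2 lets them leave the marrow and enter inflamed tissue, and Ly6c2 is one of the genes of the Ly6C surface protein by which they are recognised in mice. Inside tumours such cells can lose Ly6C and take on the features of macrophages or of cells that present antigen, with the complement genes C1qa, C1qb and C1qc as common signs of the macrophage state.

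The label was set beside markers that the selection did not use. Plac8, a small cysteine-rich protein of monocytes and granulocytes, was at 2627 UMIs per 1000000 (CPM) in PyMT-N, against 1863 CPM in PyMT-M monocytes, and had a UMI in 98.7% of the cells of either library. Ms4a6c, a membrane protein of monocytes and macrophages, was at 928 CPM in PyMT-N, against 1228 CPM in PyMT-M, in 96.7% and 97.3% of cells of those libraries. In their lymphoid cells it stood at 18.8 and 80.7 CPM. C1q macrophages also carried Ms4a6c, at 515 CPM in 79.6% of PyMT-N cells and 727 CPM in 91% of PyMT-M cells, whereas Plac8 was at 173 and 55.8 CPM in the macrophages of those libraries. Among lymphoid cells, Plac8 had a UMI in 18% of PyMT-N and 24.6% of PyMT-M cells, at a lower median depth of 2853.5 and 5074 UMIs per cell. The monocytes had medians of 6054.5 UMIs and 1951.5 genes per cell in PyMT-N and of 5944 UMIs and 1962 genes in PyMT-M. They held 963596 UMIs in PyMT-N and 467573 in PyMT-M, and no monocyte had fewer than 2467 UMIs. Both libraries shared 60 barcodes, of which 0 were monocytes in both. The barcodes of 3 monocytes occurred in the other library.

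The genes that made the selection are given as a description. Ly6c2 (GRCm38 chr15:75108158-75111970, minus strand) was at 1426 CPM in PyMT-N monocytes and 1161 CPM in PyMT-M, with 2 to 95 and 2 to 38 UMIs per cell. Its neighbour Ly6c1 (chr15:75044018-75048830) is a near-identical copy, so the counting could have split reads between them. Ccr2 (chr9:124101950-124113557) was at 859 CPM in PyMT-N, against 796 CPM in PyMT-M, with 1 to 16 and 1 to 14 UMIs per cell. Lyz2, the lysozyme gene of myeloid cells, was lower in PyMT-N, at 11776 CPM, against 23113 CPM in PyMT-M. The alarmin genes of neutrophils were kept low by the selection. S100a8 was at 91.3 CPM and S100a9 at 114 CPM in PyMT-N, against 2.14 CPM and 0 UMIs in PyMT-M.

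**Figure D1:**
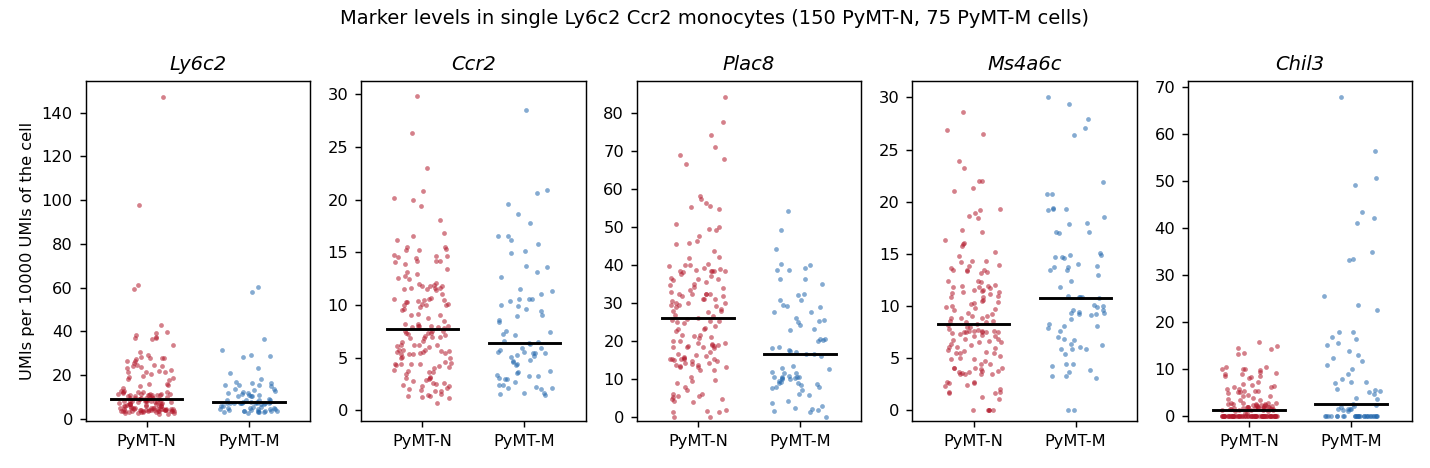
Each point is 1 monocyte and each black line the median of its library, with PyMT-N (150 cells) left of PyMT-M (75 cells); the vertical axes give UMIs of the gene per 10000 UMIs of the cell, on a separate scale for each gene. Ly6c2 and Ccr2 were used in the selection, while Plac8, Ms4a6c and Chil3 were not, and the cells with the most Chil3 are in PyMT-M.

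Monocytes were 3.0% of all filtered cells in PyMT-N (2.55 to 3.52%) and 1.02% in PyMT-M (0.803 to 1.28%). Against cells with the Lyz2 minimum, they were 17.6% in PyMT-N (15.1 to 20.3%, of 854 cells) and 1.80% in PyMT-M (1.42 to 2.26%, of 4157 cells). The PyMT-N library held 2262 cells rich in S100a8 and S100a9, against 33 in PyMT-M, which lowers every other share of all cells there. Macrophages at or over the C1q limit were 417 in PyMT-N and 3731 in PyMT-M. The share among Lyz2 cells therefore moves with the number of macrophages as well as with that of monocytes.

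Cells lay close to the Ly6c2 and C1q limits on both sides of them in both tumours. The limit on S100a8 and S100a9 alone kept out 12 cells in PyMT-N and 0 in PyMT-M. Cells kept out by the Ly6c2 minimum alone were 114 in PyMT-N and 142 in PyMT-M, and cells kept out by the C1q limit alone were 24 and 47. Plac8 was at 2544 CPM in the 28 PyMT-N members with exactly 2 UMIs of Ly6c2, against 1650 CPM in the 36 cells just outside with 1 UMI. In PyMT-M it was at 2001 CPM in 14 such members, against 1847 CPM in 16 cells just outside. Just under the C1q limit lay 13 members in PyMT-N and 3 in PyMT-M, and just over it 3 and 6 cells. Many members had no trace of the macrophage genes, with 0 UMIs of the 3 C1q genes in 120 of 150 PyMT-N and 56 of 75 PyMT-M monocytes.

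Markers of most other cell types were at or near 0. Over 7 T cell genes outside the selection the summed level was 0.125 UMIs per 10000 in PyMT-N and 0.0214 in PyMT-M monocytes. Epithelial markers were at 0.0519 in PyMT-N and 0.321 in PyMT-M, and those of mast cells or basophils at 0 and 0.0214. Markers of natural killer (NK) cells were at 0.0104 in PyMT-N and 3.25 in PyMT-M, where all 98 UMIs of the granzyme gene Gzma lay in 1 cell. Conventional dendritic cell markers were at 2.52 in PyMT-N, where 5 of 12 genes had 0 UMIs, and at 4.64 in PyMT-M, where 1 of 12 had 0 UMIs. Of the B cell markers, Ighm alone reached 50 UMIs, at 109 CPM in PyMT-N, against 154 CPM in PyMT-M. Neutrophil markers, without S100a8 and S100a9, were at 3.17 per 10000 in PyMT-N (2.82 to 3.54) and 1.58 in PyMT-M (1.24 to 1.99). In neutrophils they were at 145 in PyMT-N and 159 in PyMT-M. Of the 10 neutrophil genes outside the selection, 0 lacked a UMI in PyMT-N monocytes and 5 lacked one in PyMT-M monocytes.

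The monocytes of both tumours were then compared gene by gene on summed UMIs, as the log2 ratio of CPM, PyMT-N over PyMT-M, with a pseudocount of 1 CPM. Intervals are those of the ratio without it, and genes of the selection were left out. Of 3284 genes with at least 50 UMIs, 90 (2.74%) were higher in PyMT-N by at least 2-fold and 79 (2.41%) lower by at least 2-fold. A further 2364 genes differed by less than 0.5 on the log2 scale, and the median over all 3284 was -0.0877. These shares and this median are the background for every gene list below. The macrophages of the same libraries, thinned to the monocytes' number of UMIs, had 4.61% of 3386 genes higher in PyMT-N by at least 2-fold and 7.29% lower by at least 2-fold.

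The 12 named genes higher in PyMT-N monocytes included genes of mitochondria, nucleotide supply and RNA handling. Nme1, a kinase that keeps nucleoside triphosphates in balance, was at 196 CPM in PyMT-N, against 34.2 CPM in PyMT-M, a log2 ratio of 2.48 (1.78 to 3.36). Its neighbour and close relative Nme2 (chr11:93949814-93956259) was at 640 CPM in PyMT-N, against 237 CPM in PyMT-M, at 1.43 (1.14 to 1.74). Reads could be split between the pair. Sys1, a Golgi membrane protein, had the largest ratio among the named genes, 2.79 (1.97 to 3.88), from 163 UMIs in PyMT-N and 11 in PyMT-M. Cox17 and Chchd2, both imported into the mitochondrial intermembrane space, were at 1.58 (1.16 to 2.04) and 1.54 (1.26 to 1.84). Snrpg, a core protein of the splicing machinery, was at 1.74 (1.40 to 2.11), and Polr2l, a small RNA polymerase subunit, at 2.10 (1.24 to 3.19). Hypk, Tomm6, Timm10b, Erh and Atp5k were the other 5, at 1.40 to 1.77.

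These 12 genes were also measured in other cells of the same libraries. Their log2 ratios were 1.59 to 2.63 in C1q macrophages and 1.03 to 2.56 in lymphoid cells, beside 1.40 to 2.79 in monocytes. Whether these ratios belong to the tumours or to the library preparations cannot be told apart with 1 library per line. The median of the longest annotated transcript was 1775.5 bases for the 90 genes higher in PyMT-N, 2599 for the 79 genes higher in PyMT-M and 2674 for all genes with the minimum. Ribosomal protein genes took 20.1% of monocyte UMIs in PyMT-N and 16.7% in PyMT-M, and mitochondrial genes 2.33% and 2.10%. Their part in the ratios was not tested.

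The 12 named genes higher in PyMT-M included Chil3, Cxcl10, the cytokine signal inhibitor Socs3, and Rela and Bcl3 of NF-kappaB signalling. Chil3 (chr3:106147554-106167564), a chitinase-like secreted protein of young monocytes and alternatively activated macrophages, was at 272 CPM in PyMT-N, against 965 CPM in PyMT-M, a log2 ratio of -1.82 (-2.05 to -1.60). It had a UMI in 54.0% of PyMT-N and 62.7% of PyMT-M monocytes. At most 13 UMIs were found in 1 PyMT-N cell and 36 in 1 PyMT-M cell. Only 0.719% of PyMT-N and 0% of PyMT-M lymphoid cells had a Chil3 UMI. Socs3, which damps cytokine receptor signals and is induced through Stat3, was at 465 CPM in PyMT-N, against 1514 CPM in PyMT-M, at -1.70 (-1.88 to -1.53). The NF-kappaB subunit gene Rela was at -1.77 (-2.41 to -1.19), and Bcl3, a nuclear partner of NF-kappaB, at -1.18 (-1.62 to -0.75).

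Other named genes higher in PyMT-M were Clic4, Glul, Phf11b, Siah2, Ehd1, Sfpq and Ckb, at -1.5 to -1.18. Glul, the enzyme that makes glutamine, was at 56.0 CPM in PyMT-N, against 156 CPM in PyMT-M. Ratios in the macrophages of these libraries were -2.0 for Socs3, -0.74 for Rela, -0.59 for Bcl3 and -0.03 for Sfpq, an RNA-binding protein of the nucleus. Chil3 stood at 31.7 CPM in PyMT-N, against 10.3 CPM in PyMT-M macrophages, a log2 ratio of 1.54 and so opposite to the monocytes. Few macrophages carried it, with a UMI in 8.87% of PyMT-N and 1.34% of PyMT-M cells. The macrophage set takes in 24 PyMT-N and 47 PyMT-M cells kept out of the monocytes by the C1q limit alone. Their part in this ratio was not tested.

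**Figure D2:**
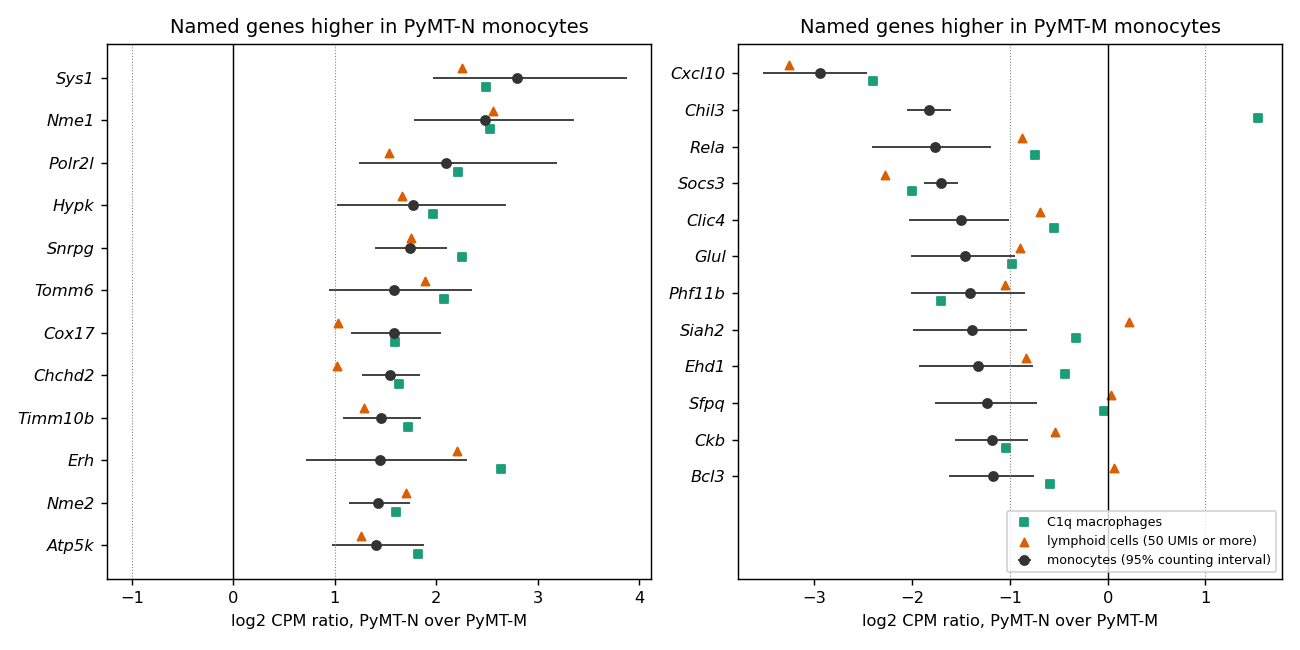
The horizontal axis gives the log2 CPM ratio of PyMT-N over PyMT-M for the 12 named genes of each direction, with dark circles and 95% counting intervals for monocytes, green squares for C1q macrophages and orange triangles for lymphoid cells with 50 or more UMIs of the gene; dotted lines mark a 2-fold difference. In the left panel all 3 cell sets lie right of 1, while in the right panel the Chil3 square lies at 1.54, opposite to the monocyte value of -1.82.

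Genes of glycolysis and of the response to low oxygen were higher in PyMT-N monocytes. The list held 30 genes, of which 19 had at least 50 UMIs, and 6 of these were higher in PyMT-N by at least 2-fold, against 0 in PyMT-M, beside 2.74% and 2.41% of all genes. The list's median log2 ratio was 0.68, beside -0.0877 over all genes, and its summed level was 83.6 UMIs per 10000 in PyMT-N and 48.7 in PyMT-M. Gapdh, a glycolytic enzyme with many processed pseudogenes, was at 2463 CPM in PyMT-N, against 599 CPM in PyMT-M, at 2.04 (1.86 to 2.22). Hilpda, a lipid droplet protein induced by hypoxia, was at 113 CPM in PyMT-N, against 19.2 CPM in PyMT-M, at 2.49 (1.58 to 3.72). Bnip3, a hypoxia-induced receptor for the removal of mitochondria, was at 108 CPM in PyMT-N, against 19.2 CPM in PyMT-M, at 2.43 (1.51 to 3.66). Ero1l, Mif and Eno1 were at 1.57, 1.36 and 1.05.

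Other members of that list did not share this difference. Pkm, the pyruvate kinase gene, was at 709 CPM in PyMT-N, against 836 CPM in PyMT-M, at -0.24 (-0.42 to -0.06). The glucose transporter gene Slc2a1 was at 0.12 (-0.66 to 0.96). Aldoa, the aldolase gene, stood between, at 0.54 (0.33 to 0.74). In the macrophages the list's median was 0.95, with Gapdh at 2.53 and Hilpda at 3.26.

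The hypoxia list was uneven among PyMT-N cells. With each cell thinned to 2000 UMIs, its 30 genes had 4 to 63 UMIs per cell in PyMT-N, with a median of 13, and 3 to 19 in PyMT-M, with a median of 10. The variance was 6.71 times the mean in PyMT-N and 1.52 times in PyMT-M. Hilpda UMIs lay in 27 of 150 PyMT-N cells (18%), with at most 17 in 1 cell, and in 4 of 75 PyMT-M cells (5.33%). In lymphoid cells, 16.2% of PyMT-N and 21.5% of PyMT-M cells had a Hilpda UMI. Median depths of those lymphoid cells were 2853.5 UMIs in PyMT-N and 5074 in PyMT-M, below those of the monocytes, so these shares are not at equal depth. The whole list stood at 66.0 UMIs per 10000 in PyMT-N and 43.2 in PyMT-M lymphoid cells. Neutrophils of PyMT-N held Hilpda at 1632 CPM. There S100a8 was at 49093 CPM, against 91.3 CPM in the monocytes, where the selection limited it. The amount of neutrophil RNA in the monocytes is therefore not read from it. Whether neutrophil RNA had a part in the monocyte values was not tested.

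The promoters of both genes are shown because they hold the letters ACGTG, the core of the site bound by hypoxia-inducible factors. Windows from 250 bases before to 50 after a RefSeq start (GRCm38.p6) were searched on both strands for ACGTG, whose match on the other strand can overlap it in CACGTG. The windows are chr6:29272376-29272675 (plus strand) for Hilpda, at 1 of its annotated starts, and chr7:138909457-138909756 (minus strand) for Bnip3. Capitals mark the matches.
Hilpda: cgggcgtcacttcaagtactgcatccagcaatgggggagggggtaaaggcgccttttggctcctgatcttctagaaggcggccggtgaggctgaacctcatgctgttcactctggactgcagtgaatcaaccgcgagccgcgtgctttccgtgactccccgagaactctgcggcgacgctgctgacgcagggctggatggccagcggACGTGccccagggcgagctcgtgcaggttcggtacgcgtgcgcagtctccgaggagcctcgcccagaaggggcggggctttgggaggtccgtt
Bnip3: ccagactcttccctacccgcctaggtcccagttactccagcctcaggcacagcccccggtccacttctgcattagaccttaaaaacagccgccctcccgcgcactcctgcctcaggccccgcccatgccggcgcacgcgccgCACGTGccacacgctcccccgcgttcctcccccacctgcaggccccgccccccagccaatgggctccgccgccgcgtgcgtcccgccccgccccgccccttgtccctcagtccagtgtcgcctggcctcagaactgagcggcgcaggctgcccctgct
Such a match was found in 22 of 38 windows (57.9%) of 27 listed hypoxia and glycolysis genes, in 19.6% of all 32851 windows and in 27.2% of 3340 windows of genes with at least 50 monocyte UMIs. Of 32 windows of oxidative phosphorylation genes, 21.9% had one. A match of letters is a description and does not show binding.

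The type I interferon response was lower in PyMT-N monocytes by the median, with few genes past 2-fold. Of 54 listed genes, 36 had at least 50 UMIs, and 1 was at least 2-fold higher in each tumour, beside 2.74% and 2.41% of all genes. The list's median log2 ratio was -0.33, beside -0.0877 over all genes, and its summed level was 155 UMIs per 10000 in PyMT-N and 170 in PyMT-M. Much of that sum came from 2 genes. Of 14924 UMIs in PyMT-N, 5955 were of Ifi27l2a and 5249 of Ifitm3, and of 7927 in PyMT-M, 2311 and 3182 were. Ifitm3, a membrane protein that blocks virus entry, was at 5447 CPM in PyMT-N, against 6805 CPM in PyMT-M, at -0.32 (-0.38 to -0.26). Ifi27l2a, a small interferon-induced membrane protein, was at 6180 CPM in PyMT-N, against 4943 CPM in PyMT-M, at 0.32 (0.25 to 0.39). The regulator Irf7, a transcription factor that amplifies the response, was at 341 CPM in PyMT-N, against 601 CPM in PyMT-M, at -0.81 (-1.05 to -0.58). Isg15, a ubiquitin-like modifier, was at 246 CPM in PyMT-N, against 460 CPM in PyMT-M, at -0.90 (-1.18 to -0.63). Slfn4 was the gene past 2-fold in PyMT-N, at 1.44 (0.45 to 2.69), and Phf11b the gene past it in PyMT-M, at -1.41 (-2.01 to -0.85).

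In C1q macrophages of the same libraries the list had a median of -1.30 over 53 genes. Its summed level there was 52.1 per 10000 in PyMT-N and 81.1 in PyMT-M, below the monocytes in both libraries. Isg15 was at 68.7 CPM in PyMT-N, against 448 CPM in PyMT-M macrophages, a ratio of -2.69. Mx1, an antiviral GTPase, was at -0.20 (-1.05 to 0.69) in monocytes and -1.89 in macrophages. At 2000 UMIs per cell, single monocytes had 9 to 94 UMIs of the list in PyMT-N and 11 to 101 in PyMT-M, with medians of 28 and 29.

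**Figure D3:**
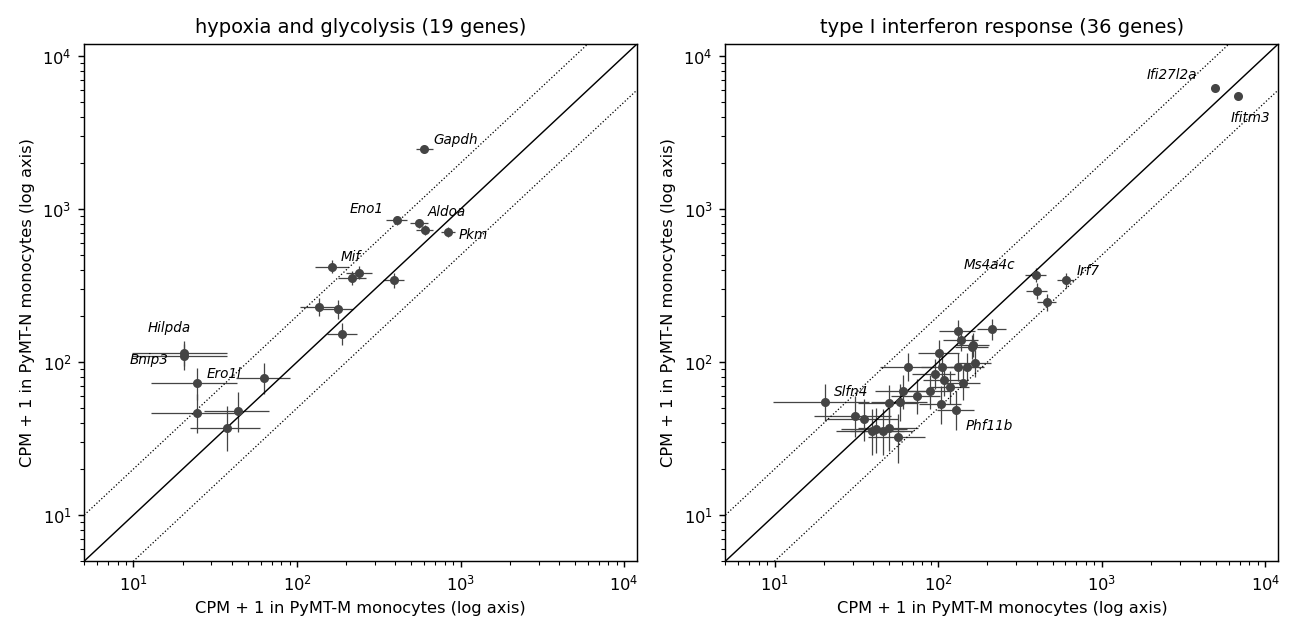
Each point is 1 gene of the list, with CPM + 1 in PyMT-N monocytes on the vertical and in PyMT-M monocytes on the horizontal log axis, and bars for 95% counting intervals; the solid line is equality and dotted lines a 2-fold difference. Gapdh, Hilpda and Bnip3 lie above the upper dotted line in the left panel, while in the right panel only Slfn4 and Phf11b lie beyond a dotted line.

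Genes of the response to interferon-gamma had a median of -0.48 over 10 measured genes. Cxcl10, an interferon-induced chemokine that attracts T cells through Cxcr3, was at 40.5 CPM in PyMT-N, against 319 CPM in PyMT-M, at -2.95 (-3.52 to -2.46). A few cells carried it, and 83 of its 149 PyMT-M UMIs were in 1 cell, as were 26 of 39 in PyMT-N. Without the cell with the most UMIs in each library the ratio was -3.30. Tap1, which carries peptides to MHC class I, was at -0.84 (-1.33 to -0.35).

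The promoters of Cxcl10 and Isg15 are shown for the letters GAAANNGAAA, which mark an interferon-stimulated response element. The windows were searched as above, with overlapping matches allowed, and lie at chr5:92348840-92349139 for Cxcl10 and chr4:156200769-156201068 for Isg15, both on the minus strand. Capitals mark 1 match in Cxcl10 and a run of 3 overlapping matches in Isg15.
Cxcl10: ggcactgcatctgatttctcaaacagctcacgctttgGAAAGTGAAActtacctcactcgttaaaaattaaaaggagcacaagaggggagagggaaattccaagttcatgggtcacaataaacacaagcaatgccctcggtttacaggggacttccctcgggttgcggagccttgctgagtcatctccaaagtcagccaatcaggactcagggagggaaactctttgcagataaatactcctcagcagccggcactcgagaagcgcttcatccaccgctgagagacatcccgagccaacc
Isg15: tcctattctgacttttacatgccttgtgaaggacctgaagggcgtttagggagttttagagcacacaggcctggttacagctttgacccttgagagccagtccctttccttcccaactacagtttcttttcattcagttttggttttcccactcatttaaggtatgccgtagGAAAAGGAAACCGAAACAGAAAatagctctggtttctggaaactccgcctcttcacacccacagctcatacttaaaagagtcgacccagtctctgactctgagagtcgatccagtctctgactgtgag
These letters were present in 25 of 51 windows (49.0%) of 42 listed type I interferon genes, in 3.44% of all windows and in 4.28% of those of genes with at least 50 monocyte UMIs.

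Chemokine genes were lower in PyMT-N by the median, at -0.66 over 12 measured genes, beside -0.0877 over all genes. Of the 12, 1 was higher in PyMT-N by at least 2-fold, against 3 in PyMT-M, beside 2.74% and 2.41% of all genes. Ccl4, a chemoattractant of leukocytes, was at 278 CPM in PyMT-N, against 800 CPM in PyMT-M, at -1.52 (-1.76 to -1.29). Its relative Ccl3 was at -1.03 (-1.5 to -0.58). Ccl6 was at 1309 CPM in PyMT-N, against 2340 CPM in PyMT-M, at -0.84 (-0.96 to -0.72). Ccl2, the main ligand of Ccr2, was at 551 CPM in PyMT-N, against 834 CPM in PyMT-M, at -0.60 (-0.79 to -0.41), and at 1.04 in macrophages. Cxcl2, which attracts neutrophils, was at 699 CPM in PyMT-N, against 719 CPM in PyMT-M. The gene past 2-fold in PyMT-N was Ccl24, which attracts eosinophils, at 2.96 (2.01 to 4.27), but 130 of its 135 PyMT-N UMIs lay in 2 cells.

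Among 11 measured genes of inflammatory cytokines and their signals, Il1b was nearly even, at 1260 CPM in PyMT-N, against 1181 CPM in PyMT-M. Nfkbia, an inhibitor of NF-kappaB that NF-kappaB itself induces, was at 328 CPM in PyMT-N, against 667 CPM in PyMT-M, at -1.02 (-1.26 to -0.79). Tnfsf9, the ligand of 4-1BB, was at -2.38 (-3.35 to -1.61) from 17 UMIs in PyMT-N and 45 in PyMT-M. Ptgs2, the inducible cyclooxygenase, went the other way, at 1.96 (0.90 to 3.41) from 59 UMIs in PyMT-N and 7 in PyMT-M. The list's median was -0.16, and 0.02 without possible doublets.

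Receptors and transcription factors of the lineage mostly lay within 2-fold. Of 19 measured receptor genes 2 were higher in PyMT-N by at least 2-fold, against 0 in PyMT-M, with a median of -0.26. Over all genes these shares were 2.74% and 2.41%, and the median was -0.0877. Csf1r, the receptor for the growth factor of macrophages, was at 368 CPM in PyMT-N, against 524 CPM in PyMT-M, at -0.51 (-0.75 to -0.27). C3ar1, a receptor of complement fragment C3a, and Cxcr4, a receptor for Cxcl12, were the pair past 2-fold, at 1.38 (0.43 to 2.55) and 1.06 (0.29 to 1.97). The transcription factor list was lower in PyMT-N, at 80.6 UMIs per 10000 (78.8 to 82.4), against 108 in PyMT-M (105 to 111). Of 18 measured transcription factors 0 were higher in PyMT-N by at least 2-fold, against 1 in PyMT-M, with a median of -0.39. That gene was Irf5, a factor of inflammatory activation, at 218 CPM in PyMT-N, against 453 CPM in PyMT-M. Cebpb and Spi1, which specify myeloid cells, were at -0.41 (-0.48 to -0.33) and -0.37 (-0.54 to -0.20). Nr4a1, the factor that nonclassical monocytes depend on and also an immediate early gene, was at -0.71 (-0.89 to -0.53).

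The classical monocyte list had a median of -0.35 over 10 genes outside the selection, with Chil3 as the only gene past 2-fold. F13a1, a clotting factor subunit, was at -0.91 (-1.22 to -0.60), whereas Plac8 was at 0.50 (0.38 to 0.61). Outside that list, Itgam, the CD11b integrin chain, was at 157 CPM in PyMT-N, against 72.7 CPM in PyMT-M, at 1.10 (0.56 to 1.69). In macrophages, a set that takes in the cells kept out of the monocytes by the C1q limit alone, the classical monocyte list had a median of 0.82. Dissociation-stress genes, which cell preparation can induce, summed to 164 UMIs per 10000 in PyMT-N (162 to 167), against 241 in PyMT-M (236 to 245). Their median was -0.44 over 18 measured genes. Of these, 1 was higher in PyMT-N by at least 2-fold, against 0 in PyMT-M, beside 2.74% and 2.41% of all genes. That gene was the immediate early gene Fosb, at 174 CPM in PyMT-N, against 81.3 CPM in PyMT-M, a ratio of 1.09 (0.59 to 1.65). Zfp36 was at 2421 CPM in PyMT-N, against 4312 CPM in PyMT-M. Immediate early Fos was at 2720 CPM in PyMT-N, against 3636 CPM in PyMT-M. The part of cell preparation in these values was not tested.

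Oxidative phosphorylation genes of the nucleus had a median of 0.45 over 37 genes, beside -0.0877 over all genes. Atp5k and Ndufb9 were the 2 higher in PyMT-N by at least 2-fold, against 0 in PyMT-M, beside 2.74% and 2.41% of all genes. Ferritin genes were higher in PyMT-N. The heavy chain gene Fth1 was at 10704 CPM in PyMT-N, against 6771 CPM in PyMT-M, at 0.66 (0.60 to 0.72), and the light chain gene Ftl1 at 12864 and 8448 CPM, at 0.61 (0.55 to 0.66). S100a4, a calcium-binding protein of motile cells, was at 890 CPM in PyMT-N, against 340 CPM in PyMT-M, at 1.39 (1.14 to 1.64), and the S100 list without S100a8 and S100a9 had a median of 0.29. Fabp5, a fatty acid carrier, and Plin2, a lipid droplet coat protein, were at 1.17 (0.86 to 1.51) and 1.05 (0.61 to 1.53). Both were past 2-fold among 13 measured genes of lipid-associated macrophages, whose median was 0.28.

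MHC class I genes were close to even, with a median of -0.21 over 16 genes and 0 past 2-fold. B2m, the shared light chain, was at 2135 CPM in PyMT-N, against 1651 CPM in PyMT-M, at 0.37 (0.25 to 0.49). The heavy chain gene H2-D1 was at 1588 CPM in PyMT-N, against 2156 CPM in PyMT-M, at -0.44 (-0.56 to -0.33), and the similar H2-K1 was at -0.12 (-0.27 to 0.04). Reads of such related heavy chain genes could be split between them. The Fc receptor adaptors Tyrobp and Fcer1g were at 0.11 (0.04 to 0.17) and 0.10 (0.03 to 0.18). Fcgr4, an activating IgG receptor, was the gene past 2-fold of 17 phagocytic and Fc receptor genes, at 1.14 (0.21 to 2.26), beside -1.53 in macrophages.

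Of 12 measured pattern recognition genes 0 were past 2-fold, with a median of -0.28. Cd14, the co-receptor for lipopolysaccharide, was at 424 CPM in PyMT-N, against 541 CPM in PyMT-M, at -0.35 (-0.58 to -0.12), and Tlr2 was at -0.77 (-1.26 to -0.30). All 7 genes of the phagocyte NADPH oxidase, which makes superoxide, were measured, and 0 were past 2-fold, with a median of -0.26. Antimicrobial and granule genes outside the selection summed to 23.5 per 10000 in PyMT-N and 34.3 in PyMT-M. Their median was -0.20 over 6 measured genes, of which Wfdc21 was past 2-fold in PyMT-N and Chil3 in PyMT-M. Proliferation genes were scarce, with 4 of 20 over the minimum of UMIs and a median of 0.13, or -0.11 with a minimum of 1 UMI.

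Of 11 measured matrix remodelling genes 1 was past 2-fold, higher in PyMT-N, beside 2.74% of all genes. That gene was Adam8, a membrane protease of leukocytes, at 75.8 CPM in PyMT-N, against 15 CPM in PyMT-M, at 2.26 (1.22 to 3.70). The list's median was 0.24, and -0.06 with stricter Ly6c2 and Ccr2 minima. Spp1, the osteopontin gene, was just under 2-fold, at 1.00 (0.28 to 1.82), and at 2.19 in macrophages. Fn1, the fibronectin gene, was at 363 CPM in PyMT-N, against 503 CPM in PyMT-M. Genes of suppressor function had a median of 0.15 over 10 genes, and of -0.10 without possible doublets. Tgfb1, which encodes a cytokine that restrains lymphocytes, was at 723 CPM in PyMT-N, against 1052 CPM in PyMT-M, at -0.54 (-0.71 to -0.37).

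Genes of nonclassical monocytes, the patrolling kind that develops from classical ones, had a median of -0.09 over 8 genes, and of 0.03 as the mean of the cells' CPM. Cx3cr1, their fractalkine receptor, was at 103 CPM in PyMT-N, against 177 CPM in PyMT-M, at -0.78 (-1.22 to -0.35). Cd300ld, a member of the CD300 receptor family, was past 2-fold the other way, at 1.22 (0.55 to 1.99).

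Markers of macrophages were present at low levels. They summed to 19.4 per 10000 in PyMT-N and 26.7 in PyMT-M monocytes, against 139 and 353 in the macrophages of those libraries. The median was 0.49 over 6 genes in monocytes, with Mrc1 as the gene past 2-fold, and -0.53 over 9 genes in macrophages. It turned to -0.13 without the monocytes rich in MHC class II genes and to -0.02 with limits applied to cells thinned to 2000 UMIs. Mrc1, the mannose receptor, had 78 UMIs in 26 PyMT-N monocytes and 5 UMIs in 3 PyMT-M monocytes, a log2 ratio of 2.81 (1.64 to 4.58). Apoe, an apolipoprotein abundant in tissue macrophages, was at 1144 CPM in PyMT-N, against 1942 CPM in PyMT-M, at -0.76 (-0.89 to -0.64).

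Some genes were found in 1 library only. Arg1, an enzyme that breaks down arginine, had 56 UMIs in 4 PyMT-N monocytes, of which 53 were in 2 cells, and 0 in PyMT-M. That is at least 9.06-fold higher against a floor of 3 UMIs over all PyMT-M monocytes. Wfdc21, a secreted protein abundant in neutrophils, had 60 UMIs in 23 PyMT-N monocytes and 0 in PyMT-M, at least 9.70-fold higher by the same floor. PyMT-N neutrophils held it at 1929 CPM, against 62.3 CPM in PyMT-N monocytes. Cd209a, a lectin of monocyte-derived dendritic cells, had 0 UMIs in PyMT-N and 60 UMIs in 7 PyMT-M monocytes, 44 of them in 2 cells. That is at least 41.2-fold lower in PyMT-N against a floor of 3 UMIs over all PyMT-N monocytes. Each of these folds is a bound on counted UMIs only and does not cover variation between cells.

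**Figure D4:**
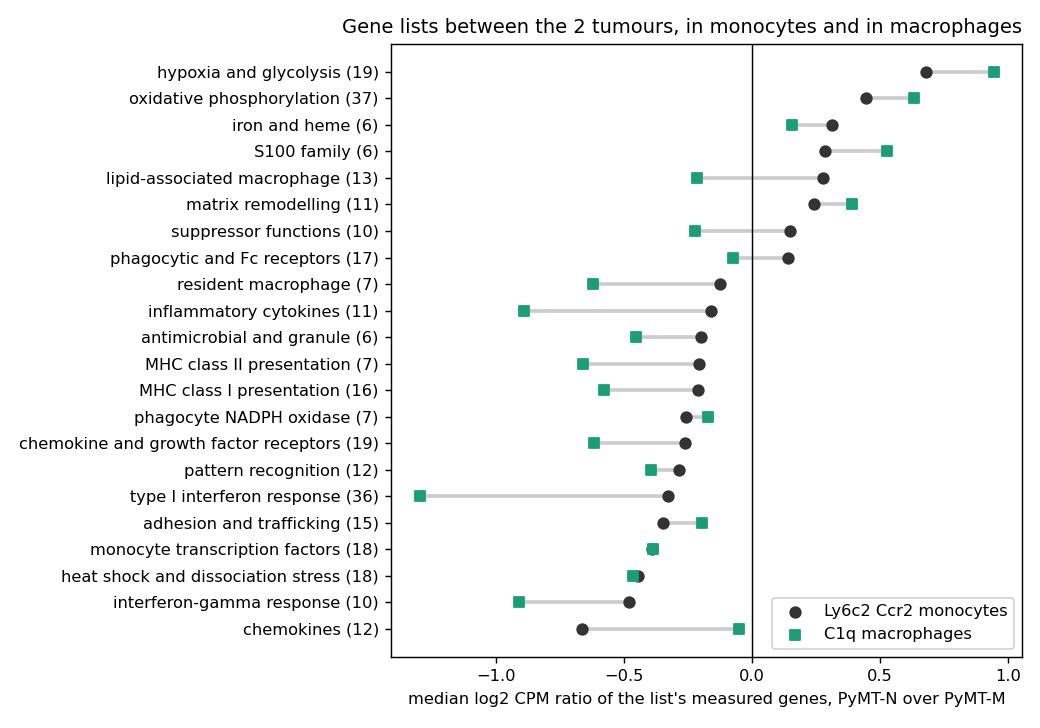
The horizontal axis gives the median log2 CPM ratio of PyMT-N over PyMT-M over the measured genes of each list, with dark circles for monocytes and green squares for C1q macrophages; the number of genes measured in monocytes stands beside each name. Macrophage medians are over the genes measured in macrophages, which can be more. Hypoxia and glycolysis lies highest in monocytes at 0.68. Of the 22 lists shown the longest line is that of the type I interferon response, from -0.33 over 36 genes in monocytes to -1.30 over 53 genes in macrophages. The part of the differing genes in that line was not tested.

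Against C1q macrophages, which were set apart from the monocytes by the selection itself, differences are given as a description. Of 5997 genes, 225 (3.75%) were at least 2-fold higher in monocytes in both libraries and 428 (7.14%) at least 2-fold higher in macrophages in both. Hp, the haptoglobin gene, was at 503 CPM in monocytes and 16.6 CPM in macrophages of PyMT-N, and at 759 and 9.06 CPM in PyMT-M. Itgb7, Mcemp1 and Ifitm6 were also among the 10 genes with the largest ratios, at 3.18 to 4.95 on the log2 scale. Itgb7 is an integrin chain of circulating cells. Other genes named by the same ranking were Plac8, Rasgrp2, Chil3, Napsa and the clotting factor gene F10.

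On the other side stood genes that monocytes almost lacked. Vcam1, an adhesion molecule, had 0 UMIs in the monocytes of either library, and stood at 234 CPM in PyMT-N and 289 in PyMT-M macrophages. The chemokine gene Ccl8 had 0 UMIs in PyMT-N and 1 UMI in PyMT-M monocytes, against 488 and 475 CPM in macrophages. Folr2, a folate receptor of resident macrophages, had 2 and 1 UMIs, against 124 and 198 CPM. Fcrls, Pf4, Gas6, Blnk, Syngr1, Zmynd15 and Pmepa1 completed the 10 genes, with 0 to 14 UMIs in the monocytes of a library.

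Among the monocytes themselves, MHC class II genes were among those with the widest spread, of genes with a UMI in at least 10% of thinned cells. Cd74, the invariant chain that guides class II molecules, had the largest ratio of variance to mean at 2000 UMIs per cell in both libraries, 27.4 in PyMT-N and 44.4 in PyMT-M. The median over genes was 1.03 in PyMT-N (2218 genes) and 1.02 in PyMT-M (2370 genes). H2-Aa, H2-Ab1 and H2-Eb1, the class II chains, were among the 8 genes with the largest ratios in both libraries. Fth1 was also among them in both, with 20.4 in PyMT-N and 10.5 in PyMT-M. Cxcl2, Tmsb10 and Ifitm1 stood among the 8 in PyMT-N, and Ccl2, Ccl4 and Lars2 in PyMT-M. Of the 41 Ifitm1 UMIs of PyMT-M, 39 were in 1 cell.

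In the pooled monocytes, the MHC class II list summed to 115 UMIs per 10000 in PyMT-N (113 to 117), against 149 in PyMT-M (146 to 153). The list's median log2 ratio was -0.20 over 7 genes, with 0 past 2-fold in either direction. H2-Ab1 was at 1105 CPM in PyMT-N, against 1146 CPM in PyMT-M, at -0.05 (-0.20 to 0.10), and H2-Eb1 was also at -0.05 (-0.20 to 0.10). Cd74 was at 5457 CPM in PyMT-N, against 7719 CPM in PyMT-M, at -0.50 (-0.56 to -0.44), and H2-Aa was at -0.49 (-0.62 to -0.36). With the selection limits applied to cells thinned to 2000 UMIs, which left 68 PyMT-N and 26 PyMT-M monocytes, the median was -1.18. Macrophages had a median of -0.66.

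Single cells ranged from 0 to 139 UMIs of Cd74, H2-Aa, H2-Ab1 and H2-Eb1 together in PyMT-N and from 0 to 183 in PyMT-M, at 2000 UMIs per cell. The medians were 3.5 and 5. Cells were divided at limits set after these values were seen, as ranges and not as types. Class II-rich monocytes, with at least 20 UMIs, were 40 of 150 in PyMT-N (26.7%, 19.8 to 34.5%) and 18 of 75 in PyMT-M (24%, 14.9 to 35.3%). Class II-poor monocytes, with fewer than 5, were 77 in PyMT-N (51.3%) and 37 in PyMT-M (49.3%). Near a limit lay 25 cells in PyMT-N and 14 in PyMT-M. Median depths were 6613 UMIs in rich and 5776 in poor cells of PyMT-N, and 6681 and 5687 in PyMT-M.

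Class II-rich cells carried other genes at higher levels in both libraries. Of 1596 genes with 30 UMIs in rich and poor cells of each library, outside the MHC class II list and the selection, 8 (0.501%) were at least 2-fold higher in rich cells in both libraries and 14 (0.877%) at least 2-fold higher in poor cells in both, with a pseudocount of 10 CPM. Ly6a, the Sca-1 surface protein, was at 509 CPM in rich and 54.8 CPM in poor cells of PyMT-N, and at 292 and 46.3 CPM in PyMT-M. Aif1, a cytoskeletal protein of macrophages, was at 557 CPM in rich and 116 CPM in poor cells of PyMT-N, and at 584 and 130 CPM in PyMT-M. Apoe was at 1919 CPM in rich and 841 CPM in poor cells of PyMT-N, and at 2672 and 972 CPM in PyMT-M. Lgmn, a lysosomal protease, Ckb, Rasa4, Tmem176a and Tmem176b were the other 5. C1qb, limited by the selection, was at 174 CPM in rich and 19.0 CPM in poor cells of PyMT-N, and at 175 and 23.1 CPM in PyMT-M.

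Genes higher in class II-poor cells included some that also set monocytes apart from macrophages. Slpi, a secreted inhibitor of neutrophil proteases, was at 26 CPM in rich and 246 CPM in poor cells of PyMT-N, and at 0 and 222 CPM in PyMT-M. Hp was at 200 CPM in rich and 765 CPM in poor cells of PyMT-N, and at 292 and 1055 CPM in PyMT-M. The antioxidant enzyme genes Gsr, Msrb1 and Mgst1 were also higher in poor cells, beside F10, Gyg, Mpp1, Smpdl3a, Idh1, Itgb7 and C3. Hmox1, which breaks down heme, was higher by summed UMIs, but single cells held much of it. In PyMT-N 1 cell had 60 of its 166 monocyte UMIs, and in PyMT-M 1 cell had 47 of 79. A Hmox1 UMI was found in 37.5% of rich and 36.4% of poor cells of PyMT-N, and in 27.8% and 40.5% in PyMT-M. Ccr2, part of the selection, was nearly even, at 876 CPM in rich and 836 CPM in poor cells of PyMT-N and at 818 and 902 CPM in PyMT-M. Of the 60 Cd209a UMIs of PyMT-M, 58 were in rich cells. The cells and genes were chosen with these same counts in view, so the ratios are a description.

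**Figure D5:**
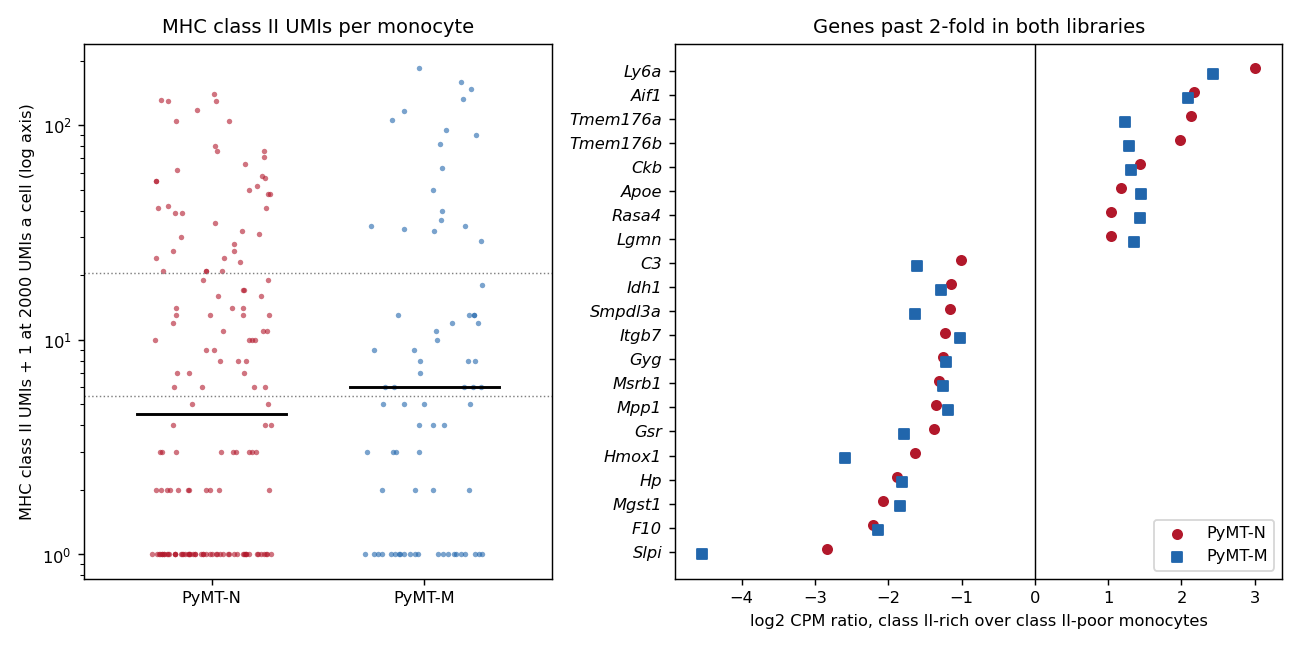
Left, each point is 1 monocyte, with its UMIs of 4 MHC class II genes plus 1 at 2000 UMIs per cell on a log axis, PyMT-N left of PyMT-M; black lines are medians and dotted lines the limits of the poor (below 5) and rich (20 or more) ranges. Right, the log2 CPM ratio of rich over poor cells for 21 genes at least 2-fold apart in the same direction in both libraries, with circles for PyMT-N and squares for PyMT-M; 8 genes lie right of 0, led by Ly6a, and 13 left of it.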

How the data were processed

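The deposited values were raw UMI counts per gene and barcode from 2 libraries of CD45-positive, DAPI-negative mouse mammary tumour cells, made with the 10x Genomics 5′ method per the labels' protocols. The authors used Cell Ranger and Seurat with build mm10, per the submitters' processing notes, whose versions the notes used here leave out. The matrices carry software version 3.1.0, per the file headers, and start at 500 UMIs per barcode in PyMT-N and 501 in PyMT-M. The files held 5020 PyMT-N and 7476 PyMT-M barcodes. Without an annotation of cells, members were chosen by the limits on UMIs given above. Members and gene lists were chosen with earlier results of these data known, so none is independent evidence.

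UMIs of symbols with several identifiers were summed, then summed over a library's monocytes and given as CPM. Genes needed 50 UMIs over both libraries. Listed genes Mx2, Ifi30, Lilrb4b and Clec7a were not analysed here. Some other genes that met these rules are not reported here. Macrophages were Lyz2 cells at or over the C1q limit, neutrophils had 200 UMIs of S100a8 and S100a9 per 10000, and lymphoid cells had 2 UMIs of T, B or NK cell markers. Ratios have exact conditional binomial, levels exact Poisson and shares exact Clopper-Pearson intervals at 95%. Genes were named by a fixed rule: up to 12 per direction with 100 UMIs, an interval lying wholly beyond 1.5-fold and, in the library where the gene was higher, 50 CPM, a UMI in 10% of monocytes and at least 0.5 of the level of its macrophages, neutrophils and lymphoid cells. Against macrophages, up to 10 per direction were ranked by the smaller library ratio. From lists, the 3 members with the highest level and the 3 with the largest ratio were eligible, and for spread up to 8 genes per library. Other genes were chosen after their values were seen. No doublet caller was run, but cells with the top 5% of UMIs or with markers of other types were left out as an alternative. Gene positions come from GENCODE M21 (GRCm38) and promoters from RefSeq (GRCm38.p6). Python 3.11.15, numpy 2.4.6, scipy 1.17.1, pandas 2.3.3 and matplotlib 3.10.9 were used.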

Additional observations from a re-analysis of the deposited data

Results flagged for a closer look

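Some results went opposite ways in the monocytes and the C1q macrophages of the same libraries, as the log2 ratio of CPM, PyMT-N over PyMT-M. None of these differences between the cell sets was tested, since there is 1 library per line. The classical monocyte list had a median of -0.35 in monocytes and 0.82 in macrophages. The macrophage list was at 0.49 over 6 genes in monocytes and -0.53 over 9 genes in macrophages. Its summed level was lower in PyMT-N in both cell sets. It was 19.4 per 10000 in PyMT-N and 26.7 in PyMT-M monocytes, and 139 and 353 in macrophages. The monocyte median of the macrophage list also changed sign under some alternatives. Chil3 was at -1.82 in monocytes and 1.54 in macrophages, with a UMI in 8.87% of PyMT-N and 1.34% of PyMT-M macrophages. The macrophage set takes in cells kept out of the monocytes by the C1q limit alone, whose part in these values was not tested. Ccl24 was at 2.96 in monocytes, nearly all from 2 cells, and -1.48 in macrophages. The remaining 3 genes with 100 UMIs in each cell set and opposite ratios past 2-fold were higher in PyMT-N monocytes and lower in PyMT-N macrophages. Acp5, a lysosomal phosphatase, was at 1.32 in monocytes and -1.53 in macrophages, F11r, a junction protein, at 1.35 and -1.77, and Rgs1, a regulator of chemokine receptor signals, at 1.13 and -1.35.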

How the results depend on the processing

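No paired analysis was possible because there is 1 library per line. Medians of the type I interferon list (-0.50 to -0.26) and of the hypoxia list (0.42 to 0.73) kept their sign under every alternative run, as did the MHC class II list, whose median was -0.49 with no minimum beyond 1 UMI, -0.45 with stricter Ly6c2 and Ccr2 minima and -1.18 with limits applied to thinned cells. Monocyte shares changed most with the limits. With stricter Ly6c2 and Ccr2 minima they were 1.80% in PyMT-N and 0.598% in PyMT-M. They were 2.22% and 0.680% without possible doublets. Limits on thinned cells left 68 cells in PyMT-N and 26 in PyMT-M, which are 1.36% and 0.353% of all filtered cells, or 2.81% and 0.409% of those with at least 2000 UMIs. Counts of genes past 2-fold depend on the minimum: those higher in PyMT-N and those lower were 236 and 242 with 20 UMIs, 1992 and 1404 with 1 UMI, and 31 and 8 with 200 UMIs. Genes lower by at least 2-fold in PyMT-N numbered 47 with a pseudocount of 10 CPM and 49 with limits on thinned cells. Of 385 values of single named genes under alternatives, 384 had the sign of the reported one. The other was Ifitm1, at -0.02 with stricter Ly6c2 and Ccr2 minima. Most of these genes were named for large ratios in these same counts, and a change of pseudocount cannot alter a sign. That count is therefore no independent check. Other lists kept their sign in 302 of 315 values, the exceptions being values of the macrophage, matrix remodelling, suppressor, inflammatory cytokine, antimicrobial, nonclassical monocyte and proliferation lists. The cause of these changes was not tested. Leaving out class II-rich cells or shared barcodes was added after the data were seen. Without rich cells the macrophage list turned to -0.13 and the chemokine list was at -1.10. With 75 PyMT-M cells, 1 UMI stands for 2.14 CPM there, and the spread between tumours of a line is unknown.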
